A study of Mus musculus with 8 samples.

Results

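Dividing microglia were studied here in cortex taken 6 days after a photothrombotic stroke, as the microglia in which messages of the division machinery were detected. Of 46216 droplets that held at least 2000 transcripts (UMIs, unique molecular identifiers) with fewer than 20% of them mitochondrial, 19821 were microglia: they had at least 3 of the 5 microglia genes P2ry12, Tmem119, Sall1, Gpr34 and Siglech, fewer than 5 UMIs of Col1a1 and Col1a2 and fewer than 2 of Cldn5 and Flt1 per 10000. The 748 microglia (3.77%) with at least 3 of the 5 division genes Mki67, Top2a, Cenpf, Cdk1 and Ccnb2 were called dividing, and the other 19073 served for comparison. Because detection chose the cells, the values of these genes, and of the replication, mitosis and chromatin genes that travel with them, are given as descriptions without a test.

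The data were single-cell RNA libraries (10x 3′ v3.1 chemistry) of 8 female mice, each library from 1 mouse, labelled Bl/J6. All 8 had photothrombosis, in which a light-activated dye closes cortical vessels, and a minipump implanted 2 days earlier. In 4 mice the pump delivered saline, and in 4 it delivered ancrod, a snake venom enzyme that depletes fibrinogen from blood, at 2.4 U per day (2.0 mg per kg). The injury site was dissected with the spared tissue around it, and myelin and red blood cells were removed, so that lesion and border could not be told apart. Replicates 1 to 3 of both groups formed batch 1 and replicate 4 of both formed batch 2. Libraries held 97861434 to 122758649 UMIs in total with saline and 126682918 to 142139441 with ancrod, so these totals did not overlap between the groups. Median UMIs per droplet kept did overlap (10653 to 14406 with saline and 13930 to 17575 with ancrod). Any 2 libraries shared at most 15 cell barcodes. No uninjured cortex was analysed here.

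Microglia are the resident macrophages of the brain. They renew themselves locally and multiply around an injury, largely under signals through the colony stimulating factor receptor Csf1r. A cell that commits to division releases E2F factors from their pocket protein partners, copies its DNA with the replication machinery in S phase, and then turns on a second wave of genes that condense and separate the chromosomes. Mki67 coats mitotic chromosomes, Top2a untangles DNA, Cenpf binds kinetochores, and Cdk1 with its partner Ccnb2 drives entry into mitosis.

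The genes of this second wave are known to share short promoter elements, the cell cycle genes homology region (CHR, TTTGAA) bound by the DREAM and MuvB complexes and the CCAAT box bound by NF-Y. Both elements, searched on both strands, were found in the windows of all 5 division genes, which run from 250 bases before to 50 bases after the start of transcription (RefSeq, build GRCm38.p6). Of 32851 such promoters in the genome, 17.9% held TTTGAA, 37.4% held CCAAT and 6.95% held both. The 200 bases before each start are shown from 5′ to 3′, with both elements in capitals (TTCAAA and ATTGG are the same elements on the opposite strand), because they are the feature that the 5 genes of the rule share. They lie on the minus strand at chr10:69352913-69353112 (Cdk1), chr9:70421555-70421754 (Ccnb2), chr11:99024190-99024389 (Top2a), chr1:189688087-189688286 (Cenpf) and chr7:135716380-135716579 (Mki67). The TTTGAA of Cenpf lay just after the start and is therefore not in the stretch shown.
Cdk1: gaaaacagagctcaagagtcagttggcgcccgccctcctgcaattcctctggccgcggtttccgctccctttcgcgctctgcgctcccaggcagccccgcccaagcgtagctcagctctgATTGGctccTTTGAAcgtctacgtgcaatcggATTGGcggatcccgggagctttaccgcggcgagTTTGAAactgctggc
Ccnb2: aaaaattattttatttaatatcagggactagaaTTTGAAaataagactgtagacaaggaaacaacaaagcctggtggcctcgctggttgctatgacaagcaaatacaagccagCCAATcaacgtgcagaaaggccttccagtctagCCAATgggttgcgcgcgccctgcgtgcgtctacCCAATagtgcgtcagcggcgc
Top2a: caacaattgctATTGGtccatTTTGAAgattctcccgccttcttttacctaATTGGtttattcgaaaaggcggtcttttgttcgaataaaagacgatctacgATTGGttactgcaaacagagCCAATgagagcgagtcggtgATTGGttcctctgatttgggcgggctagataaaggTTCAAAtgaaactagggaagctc
Cenpf: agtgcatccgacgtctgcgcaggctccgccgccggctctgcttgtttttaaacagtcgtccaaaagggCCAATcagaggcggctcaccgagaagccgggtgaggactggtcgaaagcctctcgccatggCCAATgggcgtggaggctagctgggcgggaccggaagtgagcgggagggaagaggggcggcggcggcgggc
Mki67: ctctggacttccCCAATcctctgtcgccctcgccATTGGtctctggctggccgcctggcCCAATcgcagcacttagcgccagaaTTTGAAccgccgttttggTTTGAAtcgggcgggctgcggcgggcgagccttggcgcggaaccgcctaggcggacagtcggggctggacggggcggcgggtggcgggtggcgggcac
Among 62 further mitosis genes, 49 had a window, and 34 of their 51 promoters (66.7%) held TTTGAA. Among 44 DNA replication genes, 37 had a window, and 7 of 45 promoters (15.6%) held it, close to the share of all promoters. CCAAT was found in 70.6% of mitosis and 64.4% of replication promoters. A match is a string of letters and does not show that a factor was bound there. For the microglia genes of the rule, 5 promoters of 3 genes were found, and none held TTTGAA.

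In the dividing cells the 5 genes were abundant and in the other microglia they were close to 0. Summed over the cells of a mouse, Top2a measured 511, 411, 400.2 and 423 CPM (counts scaled to a common library size) in the saline mice 1 to 4 and 440.02, 424, 299 and 365 CPM in the ancrod mice, against 2.79 to 3.60 CPM in other microglia of the same mice. Mki67 measured 407, 360.2, 343 and 323 CPM with saline and 349, 336, 234 and 300.1 CPM with ancrod. Cdk1 averaged 209.8 ± 18.7 CPM (SD, n = 8 mice), Cenpf 199 ± 31.4 and Ccnb2 114 ± 15.6. In every mouse all 5 were higher in the dividing class, as the rule requires. Mki67 was detected in 92.6% of the dividing cells, Cdk1 in 89.3%, Top2a in 85.6%, Ccnb2 in 73.5% and Cenpf in 69.0%. The dividing cells held 84.7% of all UMIs of these genes found in microglia. Empty droplets carried some of this RNA as well, with a median over libraries of 0.297 Top2a UMIs per 10000 in droplets of at most 100 UMIs.

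The same rule was applied to other cells, neurons and neutrophils among them, which do not divide. Of 512 neurons, 8 passed the same 3-gene rule (1.56%, exact 95% interval 0.677 to 3.06) at a median of 15245 UMIs, close to the 15569 UMIs of microglia, and of 681 neutrophils 7 did (1.03%, 0.414 to 2.11) at 4851 UMIs. These intervals cover counting error only. The pooled 3.77% of microglia lay above the interval of neurons, but the shares of saline mouse 1 (1.90%) and ancrod mouse 2 (2.89%) lay within it. The share was 2.40% in endothelial cells (11418 UMIs) and 8.06% in astrocytes (13478 UMIs), which can divide after injury. The share was larger in oligodendrocytes (4 of 72, 5.56%, exact 95% interval 1.53 to 13.6) and ependymal cells (11 of 129, 8.53%, 4.33 to 14.7). The pooled share of microglia lay within the first interval and below the second. These cells were few and deeper (33702 and 28218 UMIs), nearer than neurons to the median of 38189 UMIs of dividing microglia.

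Microglia formed a ladder by the number of division genes detected. None were found in 14645 cells, 1 in 3760, 2 in 668, 3 in 262, 4 in 149 and all 5 in 337. The 668 cells just outside the rule held 1.06 UMIs of the 5 genes per 10000, while the 262 cells just inside held 2.83, those with 4 genes 7.44 and those with all 5 held 20.6. Depth climbed along the same ladder, from a median of 14138 UMIs per cell with none to 26626 with 2, 33322 with 3 and 43638 with all 5. P2ry12, a purinergic receptor of surveying microglia, went from 6.50 UMIs per 10000 with none to 3.16 with 2 and 2.15 with all 5. Spp1, the secreted matrix protein osteopontin, went from 26.1 to 149 with 2 genes, 269.9 with 3 and 188 with all 5. Much of both shifts thus lay below the boundary of the rule, among cells that were not called dividing.

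**Figure D1:**
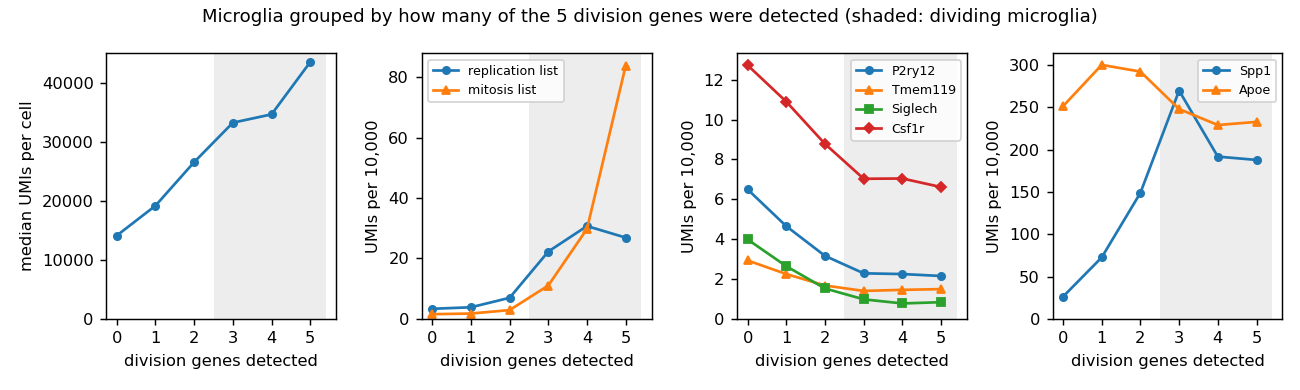
Microglia grouped by the number of division genes detected (horizontal axes, 0 to 5), with the dividing class shaded: median UMIs per cell, UMIs per 10000 of the DNA replication and mitosis lists, of the microglia genes P2ry12, Tmem119, Siglech and Csf1r, and of Spp1 and Apoe. Depth and Spp1 climb and the microglia genes decline from 0 to 3 genes, whereas the mitosis list reaches 83.8 UMIs per 10000 only with all 5.

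The dividing cells differed in their balance of replication and mitosis genes. The replication list (44 genes) and the mitosis list (62 genes, without the 5 of the rule) gave 30.7 and 29.8 UMIs per 10000 in cells with 4 division genes, and 26.9 and 83.8 in cells with 5. Replication outweighed mitosis in 265 dividing cells and mitosis outweighed replication in 480. By number of genes, 173 of the 262 cells with 3 division genes leaned to replication (66.0%) and only 32 of the 337 with all 5 (9.50%). The 5 genes of the rule belong to the second wave, so this split follows in part from the rule. With a bound of 10 UMIs per 10000, set after the values were seen, 67 cells were high in replication genes alone, 378 in both lists, 193 in mitosis genes alone and 110 (14.7%) in neither. Of those 110, 91 had exactly 3 division genes. In other microglia the lists measured 3.53 to 3.84 (replication) and 1.51 to 1.74 (mitosis) UMIs per 10000 over the 8 mice. Replication thus outweighed mitosis there too, so a lean to replication does not by itself place a cell in S phase. The share leaning to replication was 32.6, 38.1, 39.7 and 32.3% in the saline mice and 34.9, 30.5, 34.4 and 37.5% in the ancrod mice, and the groups overlapped.

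**Figure D2:**
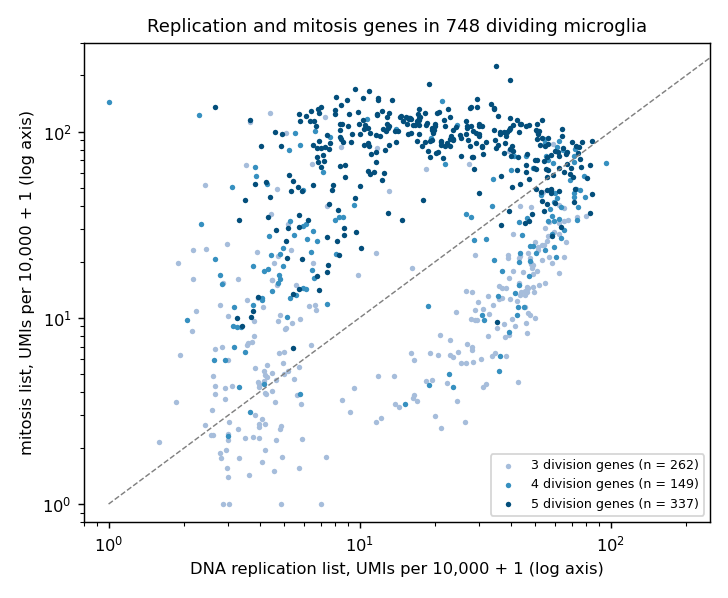
Each of the 748 dividing microglia by its UMIs per 10000, plus 1, of the DNA replication list (horizontal, log axis) and the mitosis list (vertical, log axis), coloured by the number of division genes detected, with equality dashed. Cells arch from low values at the lower left over high replication to high mitosis and back, and the 110 cells under 10 in both lists are mainly those with 3 division genes.

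Microglia genes outside the rule were found in nearly all dividing cells. Fcrls was detected in 98.1% of dividing and 98.4% of other microglia, Cx3cr1, the fractalkine receptor, in 97.7 and 97.3% and Olfml3 in 96.1 and 96.8%, none of them used by the rule. As a background, macrophages that were not dividing, at a median of 19568 UMIs, had Fcrls in 49.5%, Cx3cr1 in 66.4% and Olfml3 in 40.8% of cells. Per 10000 UMIs, Fcrls measured 12.9 in dividing microglia, 11.3 in other microglia and 4.01 in those macrophages, Cx3cr1 10.1, 14.3 and 2.15, and Olfml3 5.11, 6.30 and 0.675. Free RNA held 2.67 to 4.44 Cx3cr1 UMIs per 10000. All 5 microglia genes of the rule were found in 47.2% of dividing and 64.2% of other microglia. Siglech, a sialic acid receptor and a gene of the rule, was detected in 61.1% against 87.8%, and in 68.9% of other microglia matched in UMIs. It measured 63.0 to 123 CPM in the dividing cells and 318 to 441 CPM in the other microglia of the 8 mice. Without TMM scaling it averaged 87.3 ± 21.9 CPM in dividing and 110.5 ± 32.4 CPM in matched microglia (SD, n = 8). The ranges overlapped, and within mice it was higher in the dividing cells in 1 of 8.

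Markers of other cell types moved with the class. Of infiltrating macrophage genes, at least 3 of Ccr2, Ms4a7, Ms4a4c, Plac8, Itga4, Ly6c2 and Fn1 were detected in 33.7% of dividing and 9.25% of other microglia. In 748 other microglia drawn to match the dividing ones in UMIs within each mouse, the share was 32.0%. Summed, these 7 genes measured 4.02 to 7.17 UMIs per 10000 in dividing, 2.21 to 3.51 in other and 4.29 to 5.99 in matched microglia, and at most 1 of the 7 was at 0 in the dividing cells of a mouse. The 7 genes stood at different levels. Ly6c2 and Plac8 were near 0 in the dividing cells (0.0113 and 0.0603 UMIs per 10000, against 1.58 and 5.19 in macrophages that were not dividing, which were themselves chosen on the 7 genes). Fn1, fibronectin, measured 2.83 in dividing, 0.973 in other and 2.15 in matched microglia, close to the 3.40 of macrophages, and Ms4a7 measured 1.64, 1.29 and 2.40, against 6.17. Free RNA held 3.45 to 7.72 Fn1, 0.919 to 1.81 Ms4a7 and 0.129 to 0.269 Ccr2 UMIs per 10000, beside 0.239 of Ccr2 in dividing cells. The part of free RNA was not tested. Against matched cells 2 of 5 tested genes were higher, Fn1 (log2 fold change 0.32 ± 0.10) and Ccr2, and Ms4a7 was lower (-0.66 ± 0.16). Ccr2, the receptor that guides monocytes out of blood, measured 12.3 to 53.3 CPM in dividing against 4.58 to 8.74 CPM in other microglia, with a matched log2 fold change of 1.76 (± 0.38 SE, adjusted p = 0.00302, edgeR quasi-likelihood test). Genes of border-associated macrophages summed to 2.49 to 8.11 UMIs per 10000 in dividing and 1.85 to 2.96 in other microglia, higher in 8 of 8 mice, and to 3.10 to 7.63 in matched cells. Genes of oligodendrocyte precursors summed to 0.288 to 0.927 against 0.0682 to 0.180, without overlap and higher in 8 of 8 mice, and to 0.163 to 1.01 in matched cells. As a sum, monocyte genes were also higher in 8 of 8 mice (0.350 to 1.35 against 0.205 to 0.392, matched 0.385 to 1.31). Gene by gene, 2 of 6 tested were higher and 1 lower (median -0.04). When matched, 1 of 4 was higher and 2 were lower (median -1.07). The monocyte and precursor lists shared a gene. Neutrophil genes were lower in 8 of 8 mice against both other and matched cells (1.18 to 4.04 against 3.84 to 4.82 and 2.03 to 5.44). All 4 tested precursor genes were higher (median 2.05), and 1 of 3 when matched, Cspg4 (0.84 ± 0.09). Scores of simulated doublets marked 8.82% of the dividing, 3.09% of the other and 12.3% of the matched microglia, and up to 17.5% in the dividing cells of ancrod mouse 4. The part of doublets and of macrophages in the results was tested only by leaving such droplets out.

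Whether fibrinogen depletion changed how many microglia divided was asked next. The share was 1.90, 3.72, 3.95 and 3.74% in the saline mice and 4.74, 2.89, 4.85 and 4.15% in the ancrod mice. Saline mouse 1 was the lowest and ancrod mouse 2 lay below 3 saline mice, so the groups overlapped. Means were 3.33 ± 0.956% with saline and 4.16 ± 0.902% with ancrod (SD, n = 4), a difference of 0.828 percentage points that was within the spread between mice (two-sided exact permutation test over 70 arrangements, p = 0.257, smallest possible 0.0286). The rule needs detected genes, and ancrod libraries held more UMIs in total, although depth per droplet overlapped between the groups. With each cell thinned to 2000 UMIs the share was 0.703, 0.881, 1.02 and 1.02% with saline and 1.43, 0.733, 1.23 and 0.933% with ancrod, a difference of 0.177 points (p = 0.371, same exact test). The UMIs of the 5 genes over all microglia, which need no call per cell, came to 1.05, 1.35, 1.27 and 1.47 per 10000 with saline and 1.39, 1.03, 1.27 and 1.31 with ancrod (difference -0.0344, p = 0.743, same exact test). Within batch 1 the share differed by 0.970 points (p = 0.400 by the exact test) and in the single pair of batch 2 by 0.403 points. Without saline mouse 1 the difference was 0.353 points, and without ancrod mouse 2 it was 1.25 points (exact permutation p = 0.0571).

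**Figure D3:**
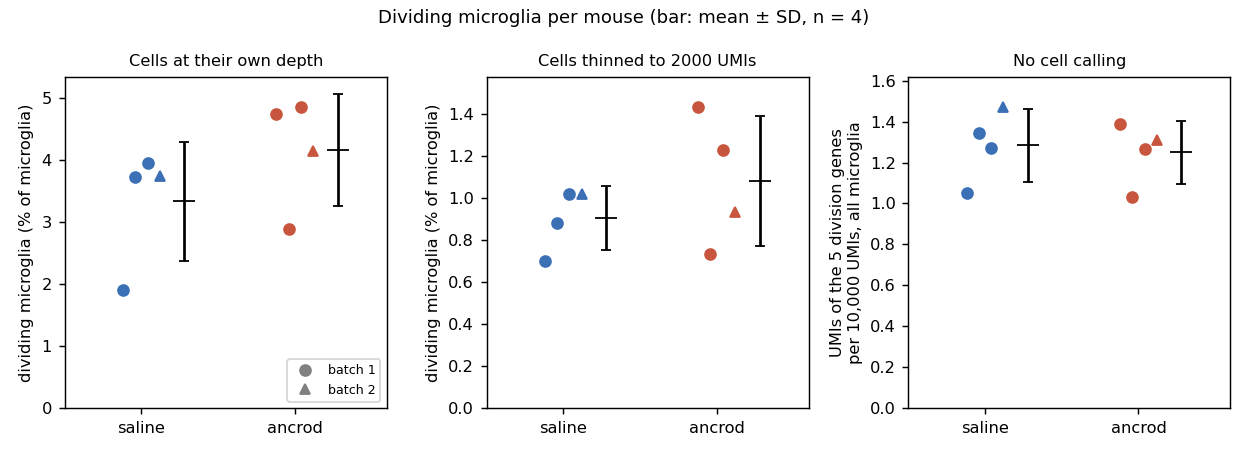
Dividing microglia in each mouse as a percentage of microglia at the cells' own depth (left) and thinned to 2000 UMIs (middle), and UMIs of the 5 division genes per 10000 over all microglia (right). Points are mice (circles batch 1, triangles batch 2) and bars are means ± SD, n = 4 a group. The groups overlap in all 3 panels.

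Infiltrating macrophages of the same dissected pieces passed the division rule more often than microglia. The pieces also held spared tissue, and where a cell lay was not known. Cell type and place could therefore not be told apart. The macrophages were taken as droplets with at least 3 of the 7 macrophage genes and fewer than 3 microglia genes, and 391 of 4002 passed the division rule. Monocytes were not separated from them, nor were microglia with fewer than 3 microglia genes detected. All 5 microglia genes were found in fewer dividing than other microglia (47.2 against 64.2%). Of the macrophages that were not dividing, 32.4% had P2ry12 and 0.997% had Sall1. The part of such microglia in the shares was not tested. With cells thinned to 2000 UMIs, 0.995 ± 0.245% of microglia and 2.83 ± 1.25% of macrophages were dividing (SD, n = 8 mice). The microglia share was lower in 8 of 8 mice, by 1.83 points on average (two-sided exact sign-flip permutation test, p = 0.00781, the smallest it can give). At the cells' own depth the shares were 3.74 ± 0.968% and 9.95 ± 3.48%. Saline mouse 3 had the narrowest gap (1.02 against 1.07% after thinning).

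Genes were then compared between dividing and other microglia of the same mouse, on UMIs summed per mouse and class. Of 12820 genes tested, 8564 passed the threshold of adjusted p below 0.05 (66.8%), 4042 higher (31.5%) and 4522 lower (35.3%) in the dividing cells. Such a share has to be read with depth in mind: dividing cells held a median of 38189 UMIs and 6054 genes, and other microglia 15235 and 3843. Against other microglia matched in UMIs (median 38015), 4861 of 11046 genes passed (44.0%), 2302 higher (20.8%) and 2559 lower (23.2%). Both comparisons are therefore given, and these shares over all genes are the background of the list counts in the paragraphs on these 2 comparisons. The matched cells carried more astrocyte RNA: 6 astrocyte markers summed to 0.649 to 12.2 UMIs per 10000 in dividing, 2.26 to 10.8 in other and 0.667 to 49.2 in matched microglia, with dividing below matched cells in 7 of 8 mice. Of these 6 genes 4 were lower against matched cells (median -1.37), and 2 when doublets were removed first (median -0.95). Their part in the matched results was not tested. Median log2 changes of all genes were -0.03 and, matched, -0.04.

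Cell cycle genes made up the top of the list. All 44 replication genes were higher (median log2 fold change 3.47, matched 2.82), as were all 62 mitosis genes (5.93, matched 5.46) and all 31 chromatin and tubulin genes (2.24, matched 2.12), again a description since the rule picks such cells. Pcna, the sliding clamp of DNA polymerase, measured 294 ± 31.3 CPM against 79.1 ± 8.26 (SD, n = 8). Birc5 (survivin) measured 240.2 ± 33.2 against 2.12 ± 0.680 CPM, and Ube2c, which marks mitotic proteins for destruction, 234 ± 43.9 against 2.99 ± 0.892. Neil3, Esco2, Nek2, H3c3, Ska1, Kif18b, Depdc1a and Cep55 had the largest rises outside the lists, among genes of at least 20 CPM that moved alike in every mouse. Neil3 measured 56.3 ± 8.85 CPM against 0.165 ± 0.0848.

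The brakes of the cycle did not move as 1 group. Of 22 such genes 7 were higher and 10 lower in dividing microglia, and 6 and 7 of 20 when matched. Over all genes tested 31.5% were higher and 35.3% lower, and 20.8 and 23.2% when matched. Several of them are themselves regulated by the cell cycle, so the list is not independent of the rule, and its leading members are given as a description. Cdkn2c (p18, chr4:109517957-109524386 on GRCm39), an inhibitor of Cdk4 and Cdk6, measured 126, 111, 112 and 133 CPM in dividing cells of saline mice and 128, 101, 112 and 99.4 CPM in those of ancrod mice, against 8.25 to 13 CPM in other microglia. It was higher in 8 of 8 mice with no overlap (log2 fold change 3.52 ± 0.09 SE), and by 3.32 ± 0.12 against matched cells. Cdkn2d (1.92), Cdkn2a (2.86) and the pocket protein Rbl1 (2.25), itself an E2F target, were higher too, also when matched (1.73, 2.41 and 2.38). The antiproliferative genes Btg1 (-1.05) and Btg2 (-1.52) and the Myc antagonist Mxd4 (-0.86) fell, also when matched (-0.60, -0.63 and -0.88). Cdkn1a (p21), a target of p53, measured 193 to 316 CPM against 149 to 237 and rose by 0.52 ± 0.08, but the matched value, 0.23 ± 0.16, did not pass (adjusted p = 0.266). Cdkn1b (p27) was slightly lower before matching (-0.13) and higher after it (0.34 ± 0.08, adjusted p = 0.00501).

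G1 regulators split by gene. Of 8 tested, 4 were higher and 4 lower, and 2 each when matched. Cdk4, the kinase of the D cyclins, and Cdk2, the kinase of S phase, were higher and stayed so when matched (0.81 ± 0.07 and 1.16 ± 0.16). Ccnd3 was lower in 8 of 8 mice, at 43.9 to 102 CPM against 89.1 to 412 CPM (-1.74 ± 0.11, matched -0.53 ± 0.09, adjusted p = 0.000405). Ccnd1 measured 128, 78.3, 59.6 and 81.7 CPM in dividing cells of saline mice and 62.1, 229.5, 80.6 and 150.5 CPM in those of ancrod mice, against 43.2 to 79.4 CPM in other microglia. It was higher in 7 of 8 mice, the exception being ancrod mouse 1, and its difference of 0.81 ± 0.22 (adjusted p = 0.00579) became 0.09 ± 0.20 when matched (adjusted p = 0.733).

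**Figure D4:**
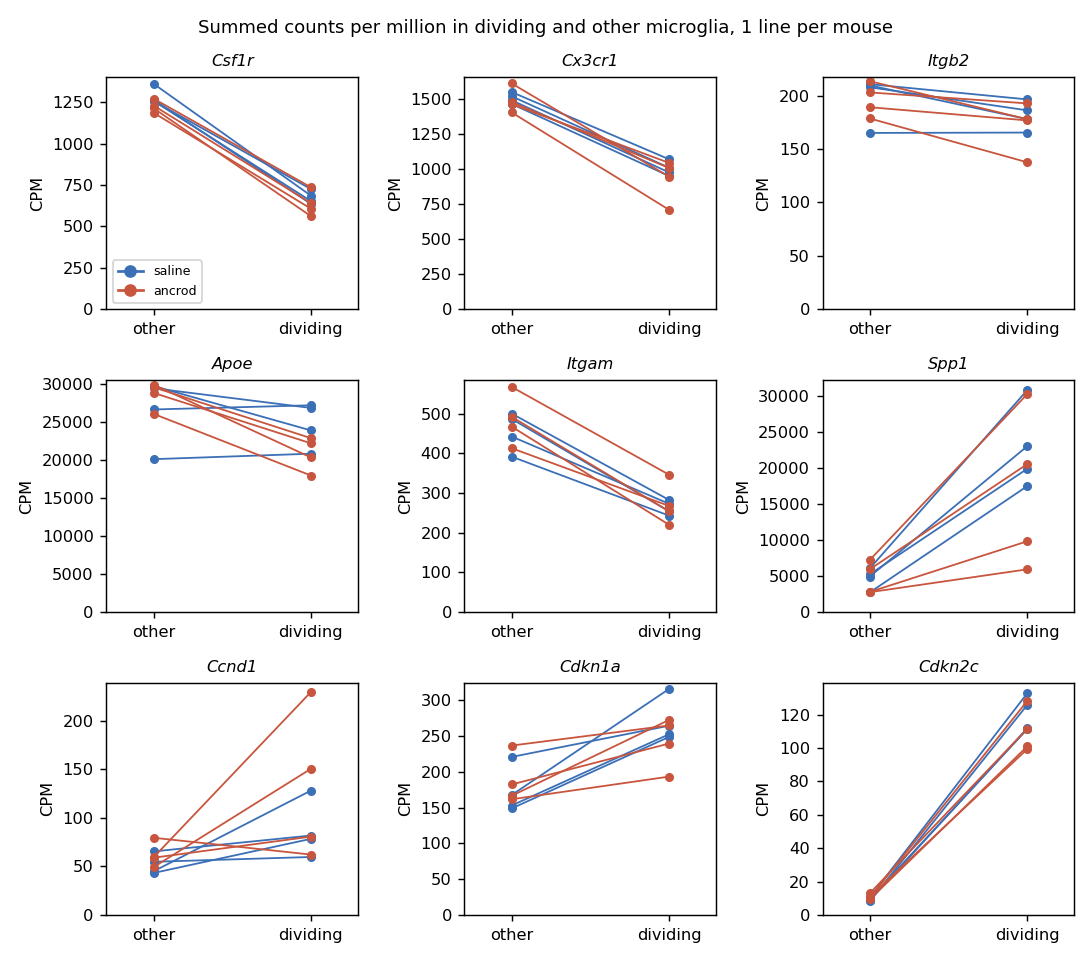
CPM of 9 genes in other (left) and dividing (right) microglia, 1 line per mouse, saline in blue and ancrod in red, each axis from 0. Csf1r, Cx3cr1 and Itgam decline in all 8 mice, Spp1, Cdkn1a and Cdkn2c climb in all 8, and Apoe and Ccnd1 go both ways, as does Itgb2, which is higher in 1 of 8.

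Genes of the surveying, homeostatic state were lower in dividing microglia. Of 29 tested 27 fell and none rose (median -0.80), and against matched cells 18 fell and none rose (median -0.25). Csf1r measured 653, 686, 725 and 636 CPM with saline and 736, 562, 607 and 641 CPM with ancrod, against 1187 to 1362 CPM in other microglia, with no overlap. Its difference of -0.94 ± 0.04 shrank to -0.17 ± 0.05 when matched but still passed (adjusted p = 0.0180). The fructose transporter Slc2a5 fell by 2.00 ± 0.10 on the log2 scale, Crybb1 by 1.55 ± 0.10 and Cst3, the protease inhibitor cystatin C, by 1.33 ± 0.06. Their matched values were -0.64, -0.54 and -0.48, all past the threshold. Mertk, a receptor for engulfing dying cells, was the largest matched decline of the list (-0.74 ± 0.05, adjusted p = 5.57e-07). Cx3cr1 was 709 to 1070 CPM against 1404 to 1611 (-0.64 ± 0.05) without overlap. When matched, no difference was detected (-0.11 ± 0.06, adjusted p = 0.155, edgeR). Fcrls was level in both (0.08 and 0.01, neither past the threshold).

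Lineage regulators followed. Of 18, 16 fell and 2 rose (median -0.54), and 10 fell and none rose when matched (median -0.21). Smad3, the effector of TGF-β signalling, fell by 1.09 ± 0.07 and by 0.47 ± 0.10 when matched, and the TGF-β receptor Tgfbr1, counted among the homeostatic genes, by 1.33 ± 0.09 and 0.47 ± 0.07. Spi1 (PU.1) and Irf8, which maintain the lineage, differed by -0.47 and -0.37, and by -0.08 and -0.15 when matched, where neither passed.

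The injury response list changed direction when the comparison cells were matched in UMIs. Of 32 genes of the state that microglia adopt near damage, 22 rose and 8 fell (median 0.35), but 3 rose and 15 fell against matched cells (median -0.17). With every cell thinned to 2000 UMIs, 23 rose and 5 fell (median 0.62). Thinning keeps the same comparison cells and each gene's expected share within a cell, so it cannot replace matching. Without droplets with 3 macrophage genes 22 rose and 7 fell (median 0.60). Spp1 measured 17510, 23062, 30862 and 19922 CPM in dividing cells of saline mice and 9836, 5936, 30304 and 20576 CPM in those of ancrod mice, against 2731 to 7246 CPM in other microglia. It was higher in 8 of 8 mice, although ancrod mouse 2 lay within the range of other microglia (2.00 ± 0.13, adjusted p = 2.29e-08). Without TMM scaling, it averaged 20205 ± 8508 CPM in dividing and 20310.2 ± 8196 CPM in matched microglia and was higher in 5 of 8 mice (-0.10 ± 0.15, adjusted p = 0.606). Droplets of free RNA held 52.6 to 214 Spp1 UMIs per 10000, and the part of free RNA was not tested. Gpnmb, a lysosomal glycoprotein, rose by 1.06 ± 0.10 but was lower than in matched cells (-0.85 ± 0.10, adjusted p = 3.3e-05), in 8 of 8 mice. Apoe was lower in 6 of 8 mice (-0.28 ± 0.07, but -0.04 with cells thinned to 2000 UMIs and -0.19 in cells with 4 or more division genes against those with none, neither past the threshold) and in 8 of 8 against matched cells (-0.63 ± 0.07, adjusted p = 3.00e-05). Astrocytes also express Apoe, and the matched cells held more astrocyte RNA in 7 of 8 mice. The phagocytic receptor Trem2 fell in both (-0.37 and -0.33). The 3 genes that rose in both were the intermediate filament Vim (2.45 and 0.69), the lectin Lgals1 (2.11 and 0.40) and the scavenger receptor Msr1 (1.49 and 0.50). Lgals1 did not pass when doublets were removed before matching (0.27, adjusted p = 0.103, edgeR).

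Ribosome biogenesis and respiration were higher in the dividing cells in both comparisons. Of 19 nucleolar and ribosome assembly genes, 10 rose and 2 fell (median 0.32), and 13 rose and none fell when matched (median 0.34). Nop58 and Nop56, core proteins of small nucleolar RNPs, rose by 0.56 ± 0.07 and 0.48 ± 0.07, and by 0.78 ± 0.07 and 0.71 ± 0.09 when matched. All 18 genes of the respiratory chain rose (median 0.52, range 0.17 to 1.06), and 11 rose and none fell when matched (median 0.18). The median percentage of mitochondrial UMIs was also higher in dividing than in other microglia of each mouse (pooled 3.47 against 3.11). Cycs (cytochrome c) led the respiratory genes at 1.06 ± 0.06, and 0.63 ± 0.04 when matched (adjusted p = 4.08e-07). Glycolysis did not keep its direction when matched: 11 of 19 rose and 6 fell (median 0.35), but 6 rose and 8 fell against matched cells (median -0.14). With cells thinned to 2000 UMIs 10 rose and 3 fell (median 0.46). Without droplets with 3 macrophage genes 12 rose and 4 fell (median 0.59). Pkm, pyruvate kinase, rose in both (0.99 and 0.22), as did Gapdh (0.91 and 0.33), while the hexokinase Hk2 (-1.21 and -0.67) and the glucose transporter Slc2a1 (-0.96 and -0.44) fell in both.

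**Figure D5:**
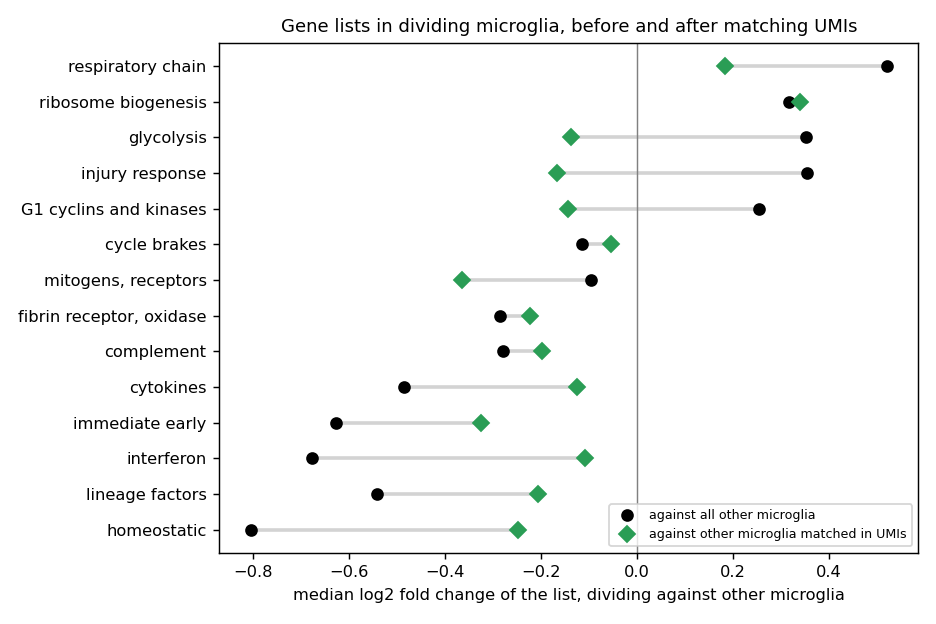
Median log2 fold change of each gene list in dividing microglia against all other microglia (circles) and against other microglia matched in UMIs (diamonds), with 0 as the vertical line. Injury response, glycolysis and G1 genes change sign on matching, ribosome biogenesis stays at 0.32 and 0.34, and the homeostatic list goes from -0.80 to -0.25.

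Immediate early, cytokine, interferon and complement genes were mostly lower against all other microglia. Of 16 immediate early genes 14 fell and none rose (median -0.63), and 9 fell when matched (median -0.33). Nr4a1 fell by 0.91 ± 0.07 and, matched, by 0.66 ± 0.08. The heat shock genes Hspa1b and Hspa1a had the largest differences (-1.87 and -1.69), but neither passed when matched (-0.27 and -0.44). Of 19 cytokine genes 3 rose and 13 fell, and 1 and 7 of 18 when matched. Il1b fell by 0.84 ± 0.08 and by 0.56 ± 0.12 when matched (adjusted p = 0.00239), and Il1a by 0.99 and 0.47. Of 28 interferon response genes 24 fell and none rose (median -0.68), whereas 3 rose and 5 fell when matched (median -0.11). With the same comparison cells thinned to 2000 UMIs, 17 of 27 fell and 2 rose (median -0.53). Ifit3b and Mx1 kept their decline (-1.64 and -1.60, matched -0.82 and -0.65), while the chemokine Cxcl10 was higher than in matched cells (1.07 ± 0.20, adjusted p = 0.000911). Of 14 complement genes 10 fell and 1 rose, and 7 of 11 fell when matched. Class II antigen presentation genes did not follow: 1 of 9 rose and 2 fell (median 0.37), and 1 of 8 rose when matched (median 0.72). With doublets also removed 4 of 7 rose and none fell (median 1.38), whereas without droplets holding 3 macrophage genes none of 8 rose and 2 fell (median -0.33). These genes varied between mice, and H2-Ab1 measured 284, 62.4, 21.5 and 28 CPM in dividing cells of saline mice and 111, 352, 184 and 80.7 CPM in those of ancrod mice, against 30.5 to 122 CPM in other microglia, and was higher in 6 of 8 mice.

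Because the treatment removes fibrinogen, its receptor on microglia and the oxidase linked to it were listed. Of 18 genes 12 fell and 3 rose (median -0.28), and 10 fell and 1 rose when matched (median -0.22). Itgam (CD11b), the alpha chain of the fibrin receptor, measured 273, 254, 283 and 243 CPM in dividing cells with saline and 346, 220, 254 and 268 CPM with ancrod, against 392 to 568 CPM in other microglia, with no overlap (-0.82 ± 0.05, matched -0.50 ± 0.07, adjusted p = 0.000144). Its partner Itgb2 was 138 to 196 CPM against 165 to 214 CPM (-0.16 ± 0.05, matched -0.22 ± 0.06). This call held in 12 of 18 alternatives and was lost, among others, without ancrod mouse 1 (-0.08) or 2 (-0.07), without droplets holding 3 macrophage genes (-0.10) and with thinned cells (-0.03). The oxidase subunit Ncf1 fell by 0.85 ± 0.05, and by 0.48 ± 0.05 when matched. Cybb, the catalytic subunit, rose by 0.36 ± 0.08 but not when matched (-0.12, adjusted p = 0.418).

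Growth factors and their receptors were lower rather than higher against matched cells. Of 19 tested 5 rose and 9 fell (median -0.10), beside 31.5 and 35.3% of all genes. When matched 12 of 18 fell and none rose (median -0.37), beside 23.2 and 20.8% of all genes. The growth factor Igf1 rose by 1.29 ± 0.08 but was lower when matched (-0.30 ± 0.11, adjusted p = 0.0490), and the Csf1r ligand Csf1 went the same way (0.26 and -0.44). Pdgfb and Tgfb1 fell in both (-1.03 and -0.96, matched -0.41 and -0.44).

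Outside all lists, the largest declines among genes of at least 20 CPM included P3h2, a prolyl hydroxylase of collagen (-2.64 ± 0.14), the lipid flippase Atp8a2 (-2.54 ± 0.10), Rhobtb1 (-2.50 ± 0.12), Fhit (-2.30 ± 0.14), the calcium channel subunit Cacnb2 (-2.18 ± 0.12), the lipid transporter Abca9 (-1.98 ± 0.07) and the clock repressor Cry1 (-1.93 ± 0.10). These 7 were lower in 8 of 8 mice and, matched, all 7 passed (-1.06, -1.22, -1.14, -1.05, -0.36, -0.66 and -0.75 in the same order), although Cacnb2 did not pass once doublets were also removed (-0.35, adjusted p = 0.0630, edgeR). Atp8a2 averaged 42.3 ± 9.66 CPM in dividing and 243 ± 28.6 CPM in other microglia (SD, n = 8).

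Within dividing microglia, no difference between ancrod and saline was detected for any gene. Of 11070 genes tested with edgeR, 0 passed (0.0%) and 379 had an unadjusted p below 0.05, and DESeq2 passed 0 with 237 such genes. The comparison rested on 46 to 129 cells per mouse and 4 mice per group. In simulated data of this design the test recovered 59% of genes changed by 1 log2 unit and 20% of those changed by 0.5. There 200 genes were changed, and the spread came from the trend over genes, not from each gene. Recovery of genes that vary more than the trend was not simulated. The 5 smallest p-values belonged to Map1b (2.28 ± 0.45), AA467197 (1.44 ± 0.31), Wdpcp (-0.61 ± 0.14), Susd1 (-0.72 ± 0.16) and Zfp260 (0.48 ± 0.11), with an adjusted p of 1.00 for each. Wdpcp, a planar polarity effector, measured 68.7, 49.9, 51.2 and 57.1 CPM with saline and 40.7, 27.5, 37.2 and 39.8 CPM with ancrod. These ranges did not overlap, yet over all genes tested such a pattern did not pass. In other microglia the same contrast of Wdpcp was -0.03.

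No gene of any list passed between treatments. The medians were -0.12 for the 44 replication genes and -0.18 for the 62 mitosis genes, of which 3 in each list lay above 0. The median was -0.00 for all genes tested, of which 5515 lay above 0. Cells with 3 division genes were 12 of 46, 32 of 97, 40 of 116 and 32 of 99 dividing cells with saline. They were 47 of 129, 24 of 59, 45 of 122 and 30 of 80 with ancrod. This share was larger in every ancrod mouse than in any saline mouse, a pattern that was not tested. The number of genes detected follows depth, with a median of 33322 UMIs at 3 genes and 43638 at 5. Median depth of dividing cells was 34138.5, 43068, 37832.5 and 41142 UMIs with saline. With ancrod it was 33939, 34933, 36336.5 and 43697.5. The part of depth was not tested. Cells with 3 division genes held 11.02 mitosis and 22.3 replication UMIs per 10000, against 83.8 and 26.9 with all 5 genes. The part of this make-up in the medians was not tested. The homeostatic median was -0.02, the injury response -0.14, the fibrin receptor and oxidase list -0.01, interferon 0.13 and respiration 0.02. Class II genes had a median of 0.78, with 7 of 7 above 0 and none past the threshold. Itgam differed by 0.05 ± 0.13, Csf1r by -0.08 ± 0.09, Spp1 by -0.46 ± 0.42 and Apoe by -0.24 ± 0.10, all with an adjusted p of 1.00 (edgeR). Over the alternatives Spp1 ranged from -0.91 (without ancrod mouse 3) to -0.17 (without ancrod mouse 2). In the other microglia of the same mice, Apoe differed by 0.13 and Spp1 by -0.00.

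Whether ancrod acted differently on dividing than on other microglia was tested as an interaction. Of 12820 genes, 1 passed (0.0078%), Ptprz1, a receptor phosphatase of astrocytes and oligodendrocyte precursors, with 743 at an unadjusted p below 0.05. It measured 165, 37.4, 23.7 and 107 CPM in dividing cells of saline mice and 24.1, 76.8, 27.4 and 27.7 CPM in those of ancrod mice, and 62.5, 10.5, 6.78 and 35.0 CPM and 14, 61.5, 24.9 and 19.7 CPM in other microglia. The ratio of dividing to other cells was larger in every saline mouse than in any ancrod mouse, and the difference of effects was -1.22 (adjusted p = 0.0375, edgeR). The call was lost when marked doublets or droplets with 3 macrophage genes were left out, when other microglia were matched in UMIs, and without saline mouse 2, 3 or 4 or ancrod mouse 2, 3 or 4 (adjusted p from 0.0927 to 1.00 in these fits), while the difference itself stayed between -1.39 and -1.03 in all 14 alternatives. Astrocyte markers were higher in dividing than in other microglia in 2 of 8 mice and higher than in matched cells in 1 of 8. Markers of oligodendrocyte precursors were higher than in other microglia in 8 of 8. The part of these cell types was not tested.

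Dividing microglia were finally compared with dividing macrophages, each against the other cells of its type. The difference between both differences passed for 4469 of 11750 genes (38.0%), 2755 higher in microglia (23.4%) and 1714 lower (14.6%). With doublets removed the split was 2105 higher and 2644 lower, and with RLE factors 2348 and 2129, and without saline mouse 4 it was 1747 and 2342. Dividing macrophages were also deeper than the other macrophages (median 36802 against 19568 UMIs), and no matching was done here. The injury response list stood apart from all genes under each of these settings: 24 of 32 were relatively higher in dividing microglia and none lower (median 1.43, against 0.07 for all genes), and 23 and none with RLE factors, with doublets removed or without saline mouse 4 (medians 1.37, 1.38 and 1.26, beside 0.00, -0.07 and -0.06 for all genes). Taken apart, the median log2 ratio of the list was 0.39 in microglia (23 of 32 genes above 0). In macrophages it was -0.73 (5 of 32 above 0). Against other microglia matched in UMIs, the microglia median was -0.17. Gpnmb averaged 506 CPM in dividing and 234 CPM in other microglia, but 468 CPM in dividing and 1993 CPM in other macrophages (3.20 ± 0.18, adjusted p = 1.03e-11, edgeR). Spp1 averaged 19783 and 4635 CPM in dividing and other microglia and 11485 and 27016 CPM in macrophages (3.21 ± 0.29). Of 19 ribosome biogenesis genes 9 were lower and 2 higher (median -0.30). The homeostatic list was mixed, with 5 higher and 10 lower of 29.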

How the data were processed

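Single-cell RNA-seq (10x 3′ v3.1) was deposited by the authors as raw UMI counts per gene and droplet, all droplets included, made with Cell Ranger 7.1.0 (STAR) on GRCm39 (mm39) without normalization. Each of the 8 matrices held 21848 genes. Droplets were filtered and classed as stated in the results, and groups came from the labels. The members, gene lists and tests were chosen with earlier results of these data known.

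Counts were summed per mouse and class and tested with edgeR 4.0.16 (R 4.3.3; quasi-likelihood, TMM, filterByExpr, Benjamini-Hochberg, threshold 0.05), with mouse as a block between classes and no block between treatments. The 14 genes of the rule were left out of these fits, and 21 from the macrophage fit. CPM values use TMM library sizes unless stated, and ± after a log2 fold change is its SE. Shares were compared by exact permutation tests over mice (scipy 1.17.1). Matching drew other microglia of like UMI number within each mouse, with a fixed seed. Doublets were scored with a Scrublet-like procedure in scikit-learn 1.9.0 and kept unless stated. On simulated counts with 200 genes changed, the comparison of classes recovered 81% of genes changed by 1 log2 unit and 58% of those changed by 0.5. The spread of these counts came from the trend over genes.

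Named genes were up to 4 members per list with the largest called change, the 8 largest called rises and falls outside the lists at 20 CPM or more, the 5 smallest p-values where none was called, and genes given in every case (Csf1r, Apoe, Cx3cr1, Itgam, Itgb2, Cdkn1a, Ccnd1 and Spp1). Other named genes were chosen after their values were seen, and some genes that the rule names are not reported here. Alternatives were DESeq2 1.42.0, RLE factors, no filter, each mouse left out, replicate and batch terms, thinning, matching, and removal of doublets or of droplets with macrophage genes. Promoters came from RefSeq on GRCm38.p6, another build than that of the counts, and were matched by symbol. Replicate numbers did not pair the mice.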

Additional observations from a re-analysis of the deposited data

Results flagged for a closer look

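The share of dividing microglia in saline mouse 1 (1.90%) lay far below the other saline mice (3.72 to 3.95%), with a gap of 0.887 of the group's range, past Dixon's critical value for 4 samples. In ancrod mice, the UMIs of the 5 division genes in the other microglia had 1 low mouse, at 0.894 of the range by the same measure. Chance gives such a result in about 1 of 20 groups, and 42 values were examined.

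Ptprz1 was the gene whose ancrod effect differed between dividing and other microglia (difference of log2 effects -1.22, tested as an interaction). Leaving out any of 6 mice, or the marked doublets, ended the call, with the difference between -1.39 and -1.03 in all 14 alternatives.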

How the results depend on the processing

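Directions and calls of the shares held under every alternative run. The call between treatments could not change within batch 1 or with the replicate block. The smallest p the exact tests can give there is 0.1 and 0.125. The single pair of batch 2 had no test. Leaving out 1 mouse gave differences between treatments of 0.353 to 1.25 points and between microglia and macrophages of -2.09 to -1.57 points. Genes differing between dividing and other microglia numbered 4861 with matched cells, 3958 with cells thinned to 2000 UMIs and 4592 with doublets removed and then matched, where fewer genes or cells entered, and 8129 to 8382 without 1 mouse. The count for the macrophage comparison was 3853 to 4268 without 1 mouse, and between treatments it stayed at 0. The interaction count was 0 with doublets removed, without droplets holding 3 macrophage genes and with matched cells, and 0 to 1 without 1 mouse. The cause was not tested.

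Values near 0 changed sign. The UMIs of the division genes differed by 0.0278 per 10000 without saline mouse 4 and by 0.0384 without ancrod mouse 2, and ranged from -0.113 to 0.0384 over the mice left out. Between treatments Csf1r was at 0.00081 without droplets holding 3 macrophage genes, Itgam at -0.0862 without ancrod mouse 1 (up to 0.137 without another mouse) and -0.0082 with doublets removed, and Itgb2 at 0.0048 without ancrod mouse 2 and 0.0316 without droplets holding 3 macrophage genes. Spp1 in dividing against other microglia turned to -0.10 when matched and -0.15 when doublets were also removed.

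Same-numbered mice did not deviate together (correlations -0.302, 0.0159, 0.370 and 0.237). With the replicate block the treatment comparison called 0 genes (409 at an unadjusted p below 0.05) and the share difference of 0.828 points had an exact sign-flip p of 0.375, where 0.125 is the smallest possible.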
